A study of Penicillium oxalicum with 9 samples.

Results

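The loci described here are the rows numbered PDE_09980 to PDE_10020 in a table of messenger RNA levels from Penicillium oxalicum, a mould whose secreted enzymes digest cellulose, starch and other plant polymers. They were chosen by locus number. The range was placed around a stretch already seen, in these same values, to be lower in the strain without crzA and above wild type in the strain with crzA put back. The table ends at PDE_10013, so the range held 34 rows of 9860 in all, and 32 of the 34 passed the filter on low values (at least 1 FPKM in at least 3 of the 9 libraries). FPKM counts fragments relative to a gene's length and to the size of the library. Because the differences between strains chose the range, those differences are given below as a description, without p-values.

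Fungal CrzA carries zinc fingers and binds DNA. Calcineurin, a phosphatase that calcium activates, lets it enter the nucleus and act on its target genes. Signalling through this pair is known for its part in stress tolerance, cell wall integrity and the formation of asexual spores. In filamentous fungi, genes that work in one pathway, above all in secondary metabolism, often lie side by side on the chromosome and are switched on and off together. Gene names are absent from the table and 0 of its 9860 locus numbers matched the RefSeq gene table of strain HP7-1, so no role is given here to any of the loci. Locus numbers are used as an order of neighbours, and distances between the genes were not analysed here.

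The study held 3 strains with 3 libraries each: a strain with crzA deleted, called the deletion strain; a recovery strain, into which crzA was put back; and the wild type, strain 114-2. All strains grew for 24 h at 30 °C as a pre-culture, then for 18 h in a modified Mendal's medium. The carbon source was 2% starch according to the medium label, while the source labels name glucose. How the deletion and recovery strains were made, and whether each was a single transformant, is not given in the sources used here, and no label says whether replicates were separate cultures. The level of crzA itself was not analysed here. Summed FPKM ranged from 973798 to 1063502 per library, and read depth is unknown. Wild-type replicate 2 and deletion replicate 2 stood apart from the other libraries of their strains. Over the 9099 rows that passed the filter, log2(FPKM + 1) correlated at r = 0.943 and 0.949 between wild-type replicate 2 and the other wild-type libraries, which correlated at 0.993 with each other. Deletion replicate 2 correlated at 0.937 and 0.944 with the other deletion libraries, which correlated at 0.987. The recovery libraries correlated at 0.989 to 0.995. Where leaving out either library changed a call described below, the value without it is given too. Ranks are given again without deletion replicate 2, and changes of order without wild-type replicate 2 are described.

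A block of 12 adjacent loci, PDE_09999 to PDE_10010, was far lower in the deletion strain than in both other strains and stood higher in the recovery strain than in wild type. Its summed level was 66.7, 100.4 and 106 FPKM in the deletion libraries, 4457, 4398 and 3624 FPKM in the recovery libraries and 2442, 2514 and 2935 FPKM in the wild-type libraries. The deletion mean of 90.9 ± 21.1 FPKM (SD, n = 3) was 2.18% of the recovery mean of 4160 ± 465 FPKM and 3.46% of the wild-type mean of 2630 ± 267 FPKM. The recovery mean was 1.58 times the wild-type mean. No library of one strain overlapped those of another. As a share of all FPKM in a library, the block held 0.00910% ± 0.00197 in the deletion strain, 0.395% ± 0.0401 in the recovery strain and 0.252% ± 0.0257 in wild type. Mycelium holds hyphae and developing structures together, and in such bulk samples fewer cells of one kind and less RNA per cell cannot be told apart.

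**Figure D1:**
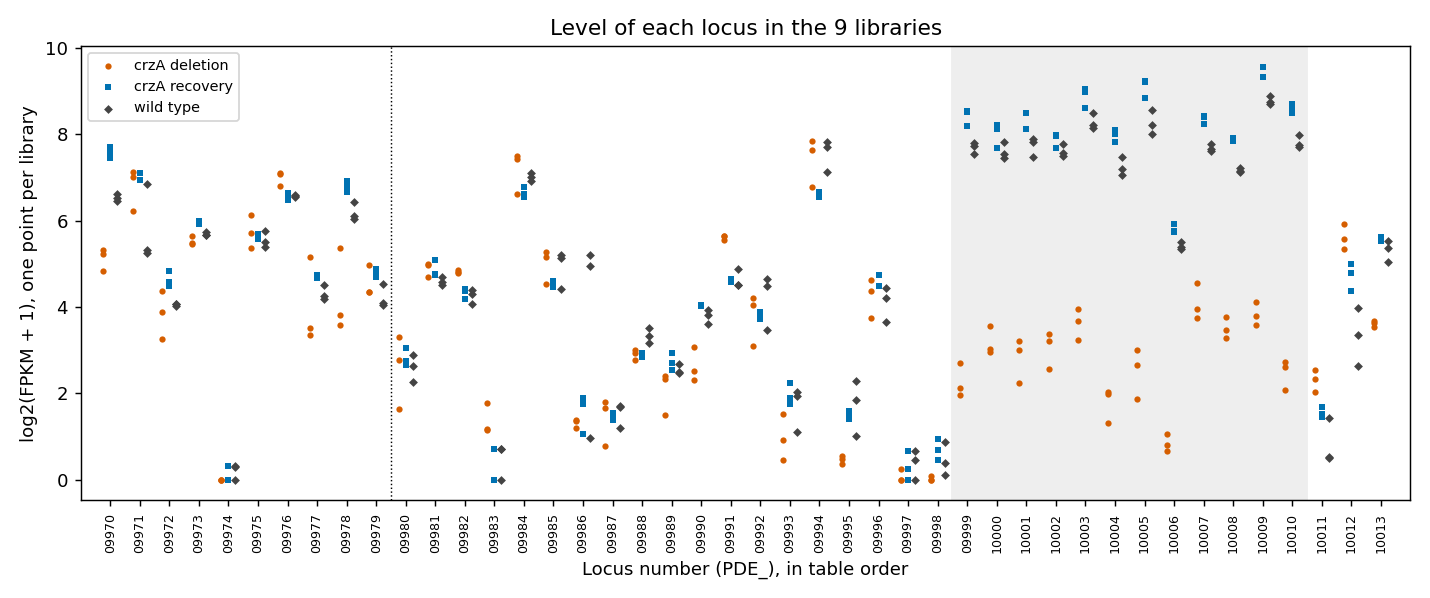
Level of each locus on the log2(FPKM + 1) scale, with one point per library: deletion (orange circles), recovery (blue squares) and wild type (grey diamonds). Loci run in table order from 10 rows before the range (left of the dotted line) to the last row of the table; the 12 loci PDE_09999 to PDE_10010 are shaded, and there the deletion points lie far below the points of both other strains.

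The level rose steeply at the start of the block. PDE_09998 stood at 0.0700, 0 and 0 FPKM in the deletion libraries, 0.620, 0.380 and 0.920 FPKM in the recovery libraries and 0.300, 0.0800 and 0.840 FPKM in the wild-type libraries. PDE_09997 had 0.190, 0 and 0 FPKM in the deletion libraries, 0, 0.190 and 0.580 FPKM in the recovery libraries and 0.380, 0 and 0.580 FPKM in the wild-type libraries. Both were too low for the filter and lay below 1 FPKM in every library, and the next locus was abundant. At PDE_09998 the deletion values lay below all recovery and all wild-type values, as in the block, while recovery and wild-type values overlapped. PDE_09999 stood at 2.88, 3.39 and 5.55 FPKM in the deletion libraries, 365, 369 and 292 FPKM in the recovery libraries and 184, 221 and 209.9 FPKM in the wild-type libraries. Its mean of 3.94 ± 1.42 FPKM in the deletion strain was 1.92% of the wild-type mean, 205 ± 19.1 FPKM, a log2 change of -5.41 ± 0.20 (SE). All log2 changes here are differences of mean log2(FPKM + 1), a scale that understates the change of low values. In the recovery strain the mean was 1.67 times the wild-type mean, a log2 change of 0.73 ± 0.20, and the recovery values lay above all wild-type values.

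The next 3 loci stood at similar levels. PDE_10000 stood at 6.76, 7.21 and 10.7 FPKM in the deletion libraries, 278, 295 and 203 FPKM in the recovery libraries and 173, 186 and 223 FPKM in the wild-type libraries. PDE_10001 stood at 3.70, 7.07 and 8.33 FPKM in the deletion libraries, 359.5, 359 and 276 FPKM in the recovery libraries and 176, 224 and 237 FPKM in the wild-type libraries. PDE_10002 stood at 4.89, 8.32 and 9.42 FPKM in the deletion libraries, 251, 249.5 and 203 FPKM in the recovery libraries and 179, 189 and 218 FPKM in the wild-type libraries. Deletion values of these loci were all far below those of every recovery and wild-type library. The deletion means were 4.24%, 3.0% and 3.86% of the wild-type means. PDE_10000 and PDE_10002 were the 2 loci of the block whose recovery and wild-type values overlapped, because recovery replicate 3 lay below wild-type replicate 3. Their log2 changes in the recovery strain against wild type were 0.41 ± 0.21 and 0.26 ± 0.21, against 0.64 ± 0.26 for PDE_10001.

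In the middle of the block lay its deepest falls and its least abundant locus. PDE_10003 stood at 8.39, 11.8 and 14.4 FPKM in the deletion libraries, 526, 503 and 389 FPKM in the recovery libraries and 295, 280.4 and 358 FPKM in the wild-type libraries. PDE_10004 stood at 1.48, 3.12 and 2.94 FPKM in the deletion libraries, 275, 254 and 226 FPKM in the recovery libraries and 146, 132 and 177 FPKM in the wild-type libraries. PDE_10005 stood at 2.65, 5.29 and 7.02 FPKM in the deletion libraries, 600.1, 595 and 458 FPKM in the recovery libraries and 296, 254 and 378 FPKM in the wild-type libraries. PDE_10005 showed the largest differences of the block in every strain comparison. Its deletion mean of 4.99 ± 2.20 FPKM was 1.61% of the wild-type mean, 309 ± 62.9 FPKM, a log2 change of -5.75 ± 0.28. Against the recovery mean of 551 ± 80.7 FPKM the log2 change was -6.59 ± 0.28, and the recovery mean was 1.78 times the wild-type mean. PDE_10006 stood at 0.590, 1.07 and 0.760 FPKM in the deletion libraries, 59.6, 52.8 and 52.0 FPKM in the recovery libraries and 39.8, 44.1 and 40.6 FPKM in the wild-type libraries. PDE_10006 was the least abundant of the 12 in all 3 strains, and no deletion library read it above 1.07 FPKM. Its log2 change of -4.56 ± 0.14 in the deletion strain against wild type depended on the pseudocount, at -5.55 with 0.1 and -3.0 with 5. In percent its deletion mean was 1.94% of the wild-type mean, close to the 1.65% of PDE_10004.

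PDE_10007 and PDE_10008 kept the largest share of their wild-type level in the deletion strain. PDE_10007 stood at 12.4, 22.7 and 14.4 FPKM in the deletion libraries, 339, 336 and 301 FPKM in the recovery libraries and 194, 200.4 and 217 FPKM in the wild-type libraries. PDE_10008 stood at 8.72, 12.6 and 10.1 FPKM in the deletion libraries, 233, 239 and 230.2 FPKM in the recovery libraries and 138, 140.4 and 148 FPKM in the wild-type libraries. Their deletion means were 8.09% and 7.36% of the wild-type means, whereas the other 10 loci of the block lay between 1.61% and 4.24%. Their log2 changes in the deletion strain against wild type, -3.59 ± 0.20 and -3.66 ± 0.14, were the smallest of the block. PDE_10008 was also the steadiest locus in the recovery strain, with a mean of 234 ± 4.49 FPKM, against 142 ± 5.19 FPKM in wild type, a log2 change of 0.72 ± 0.14.

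The block ended with its most abundant locus and the one after it. PDE_10009 stood at 10.9, 12.8 and 16.3 FPKM in the deletion libraries, 756, 752 and 635 FPKM in the recovery libraries and 413, 429.6 and 475 FPKM in the wild-type libraries. PDE_10010 stood at 3.23, 5.08 and 5.64 FPKM in the deletion libraries, 415, 393 and 358 FPKM in the recovery libraries and 209, 213 and 254 FPKM in the wild-type libraries. No values overlapped between strains at either locus. The deletion means were 3.04% and 2.06% of the wild-type means, and the recovery means were 1.63 and 1.73 times the wild-type means.

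**Figure D2:**
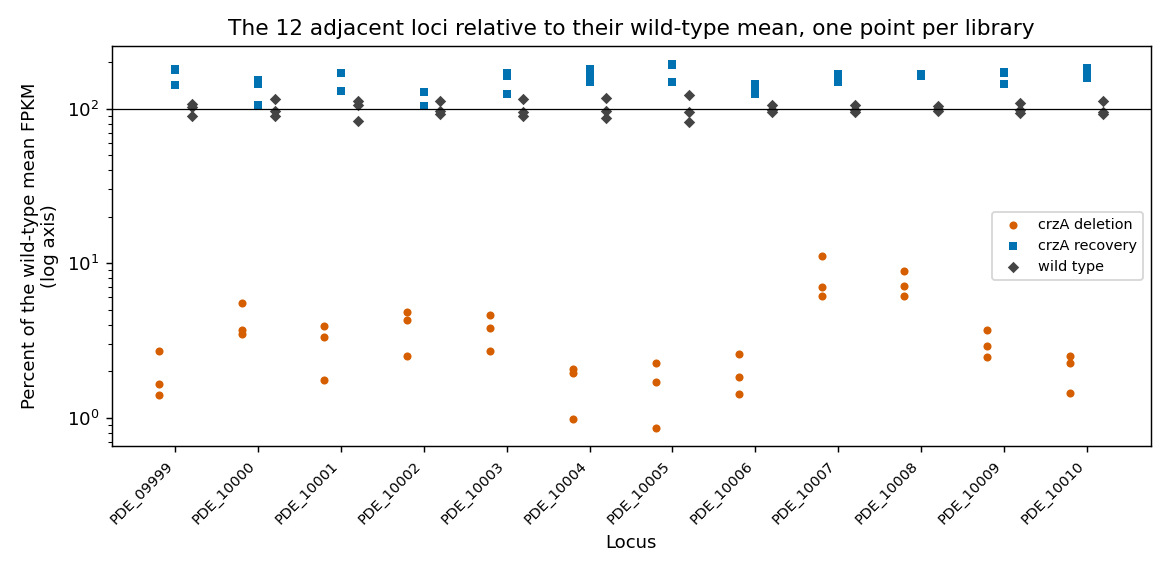
FPKM of each of the 12 loci as a percentage of that locus's mean over the 3 wild-type libraries (log axis, line at 100%), one point per library for the deletion (orange circles), recovery (blue squares) and wild-type (grey diamonds) strains. Deletion means ran from 1.61% to 8.09%, highest at PDE_10007 and PDE_10008, and recovery points overlapped wild-type points at PDE_10000 and PDE_10002.

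Over the 12 loci, log2 changes in the deletion strain ran from -5.75 to -3.59 against wild type (median -4.78) and from -6.59 to -4.26 against the recovery strain (median -5.40). The 9099 rows of the table that passed the filter had medians of 0.06 and -0.02 in the same comparisons. Without wild-type replicate 2 and deletion replicate 2 the ranges were -5.95 to -3.79 against wild type and -6.66 to -4.50 against recovery. At all 12 loci the deletion values lay below all wild-type and all recovery values, as they did at 14.5% of all rows tested against wild type and 25.0% against recovery. All 12 passed limma in both comparisons. Among the 32 rows of the range that passed the filter, 15 were lower in the deletion strain than in wild type, where 11.1% of all rows tested were lower, and 15 were lower than in the recovery strain, where 16.1% were (limma, Benjamini-Hochberg adjusted p under 0.05 over all rows tested). Since these contrasts chose the range, the counts describe it and nothing is read from them. Both comparisons use the same deletion libraries. With a log2 change of -1 or below in the deletion strain and a recovery mean above the wild-type mean on the log2 scale, the pattern that chose the range was met by 14 of the 32 rows, the 12 loci, PDE_09990 and PDE_10013, and by 4.07% of all rows tested.

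The higher level in the recovery strain was small beside the fall and less certain. Log2 changes of the recovery strain against wild type were positive at all 12 loci, from 0.26 to 0.84 with SEs of 0.14 to 0.28 (median 0.69), beside a median of 0.09 over all rows tested. At 10 of the 12 loci the 3 recovery values lay above all 3 wild-type values, as they did at 21.9% of all rows tested. Only PDE_10008 passed limma in this comparison, where 0.846% of all rows were called higher. The number of loci of the block called depended on the libraries in the fit, and so did the share of all rows called higher. The number was 7 without wild-type replicate 2 and deletion replicate 2, where 15.5% of all rows were called higher. It was 4 without deletion replicate 2, where 3.0% were, and 2 without deletion replicate 1, where 0.692% were. It was 0 without wild-type replicate 1, wild-type replicate 3, deletion replicate 3 or any of the recovery replicates, where 0.220% to 0.571% were. The deletion libraries enter this comparison through the shared estimate of spread. A recovery level above wild type was also seen outside the block: of the 9 rows that passed the filter among the 10 before PDE_09980, the log2 change of the recovery strain against wild type was positive in 8 and the values did not overlap in 7, with a median log2 change of 0.56. The difference between the block and those rows was not tested.

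**Figure D3:**
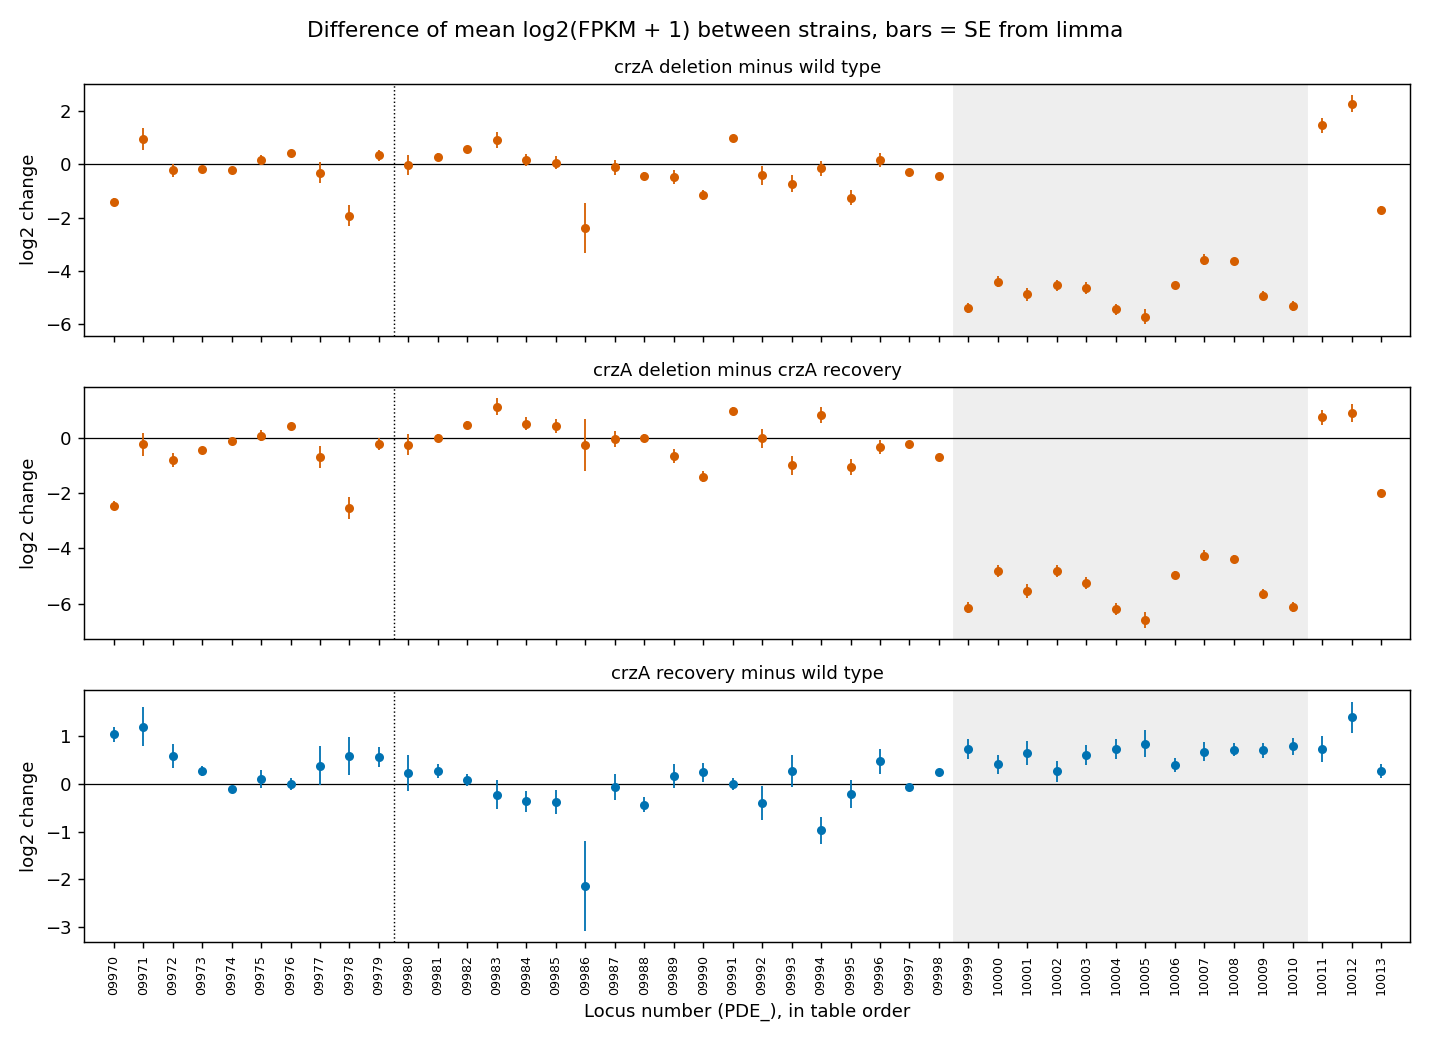
Difference of mean log2(FPKM + 1) for deletion minus wild type (top), deletion minus recovery (middle) and recovery minus wild type (bottom), for each locus in table order; bars are the SE from limma, drawn only for rows that passed the filter, and the 12 loci are shaded. The block lies between -5.75 and -3.59 in the top panel and between 0.26 and 0.84 in the bottom panel, and PDE_10011 and PDE_10012 beside it lie above 0 in all 3 panels.

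The levels within the block kept a similar order in the recovery strain and wild type. Ranked by mean FPKM with all libraries kept, no locus moved by more than 2 places between those strains. PDE_10009 came first and PDE_10006 last in both. In wild type 8 of the 12 means lay between 142 and 225 FPKM, with SDs of up to 32.3 FPKM, so that the order among these 8 is not resolved. Without wild-type replicate 2 the wild-type mean of PDE_09999 fell below those of PDE_10000, PDE_10002 and PDE_10007. PDE_09999 and PDE_10002 then moved by more than 2 places between the recovery strain and wild type. In the deletion strain the order differed by up to 7 places from that of wild type. PDE_10007 had rank 1 in the deletion strain, against rank 7 in the recovery strain and rank 7 in wild type. Without deletion replicate 2 it had rank 2, at a mean of 13.4 FPKM, after PDE_10009 at 13.6 FPKM, and the other 10 loci had the ranks they have with it. PDE_10008 had rank 4 in the deletion strain, against rank 11 in both other strains. PDE_09999 had rank 10 in the deletion strain, against rank 5 in the recovery strain and rank 6 in wild type. Levels of different loci can be compared only as far as the deposited values are true FPKM, since the labels describe libraries of short tags. The highest mean exceeded the lowest 20.5-fold in the deletion strain, 13.0-fold in the recovery strain and 10.6-fold in wild type. The median coefficient of variation between libraries was 30.7% in the deletion strain, 10.6% in the recovery strain and 10.6% in wild type. In the other 22 rows of the range it was 30.2%, 10.4% and 27.8% in the same strains.

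The 12 loci also moved together between libraries of the same strain, which the choice of the range did not use. After the mean of each strain was subtracted from the log2 values, all 12 loci lay below their strain mean in deletion replicate 1, in recovery replicate 3 and in wild-type replicate 1. In these libraries 39.3%, 62.2% and 54.0% of all rows tested lay below theirs. The mean deviation of the block was -0.37 in deletion replicate 1, against 0.13 and 0.24 in deletion replicates 2 and 3. It was -0.18 in recovery replicate 3, against 0.10 and 0.08 in recovery replicates 1 and 2. It was 0.15 in wild-type replicate 3, against -0.10 and -0.05 in wild-type replicates 1 and 2. Over the 9 libraries, with 6 residual degrees of freedom, the deviations of 66 pairs of loci correlated at a median r of 0.78, with a range of 0.06 to 0.98, and 53 pairs had r above 0.5. All pairs share the same libraries and their scaling. The block's mean deviations were widest in the deletion strain, where its levels were low. Without deletion replicate 1 the median r of the pairs was 0.60, and it was 0.76 to 0.92 without any other single library. Other rows were set against the block's mean deviation, not against single loci. The like measure within the block is each locus against the mean of the other 11, with a median r of 0.91 and a lowest r of 0.53. The block's mean deviation correlated at a median of -0.06 with all other rows tested, of which 9.27% had r above 0.5. Among the other 20 rows of the range that passed the filter it correlated at a median of -0.15, from -0.73 at PDE_09981 to 0.42 at PDE_10013, and 0 had r above 0.5. PDE_10006, PDE_10007 and PDE_10008 followed the mean of the other 11 loci least closely, at r = 0.55, 0.53 and 0.65, and PDE_10002 most closely, at 0.996. In deletion replicate 2, PDE_10007 stood 0.48 above its strain mean and PDE_09999 0.13 below.

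**Figure D4:**
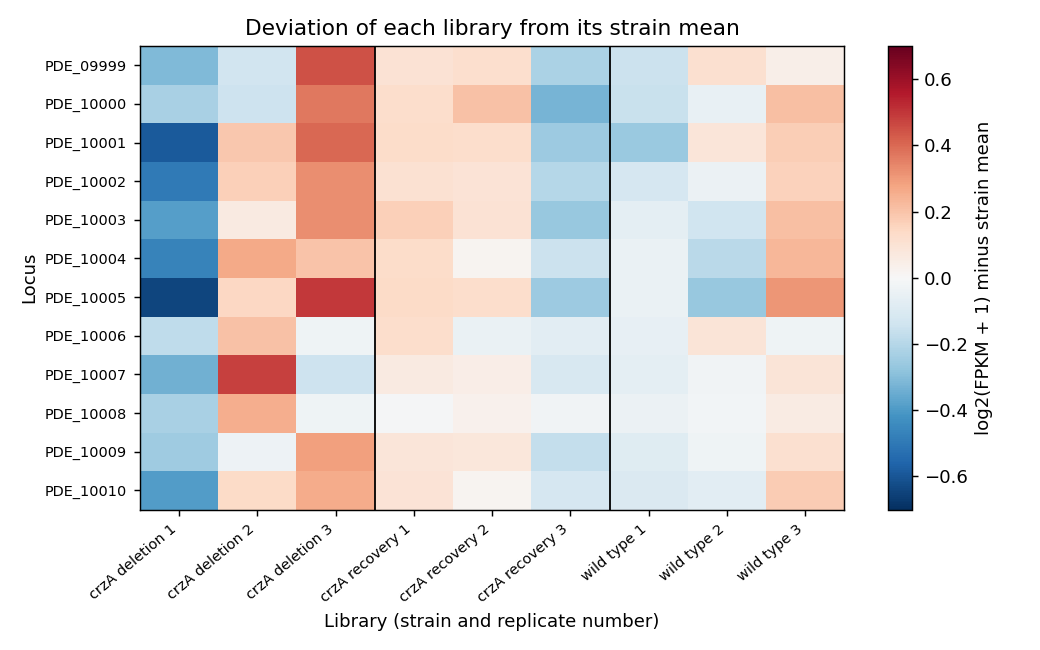
Deviation of log2(FPKM + 1) from the strain mean for the 12 loci (rows) in the deletion, recovery and wild-type libraries (columns, separated by black lines); red is above and blue below the mean of the strain. Deletion replicate 1, recovery replicate 3 and wild-type replicate 1 are below the mean at all 12 loci, while PDE_10006 to PDE_10008 depart from the others in deletion replicate 3.

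Beyond the block the direction turned. PDE_10011 stood at 4.86, 3.06 and 4.01 FPKM in the deletion libraries, 1.88, 1.73 and 2.20 FPKM in the recovery libraries and 0.440, 1.70 and 0.420 FPKM in the wild-type libraries. PDE_10012 stood at 59.6, 39.7 and 46.3 FPKM in the deletion libraries, 26.6, 31.0 and 19.7 FPKM in the recovery libraries and 5.19, 14.8 and 9.25 FPKM in the wild-type libraries. Both loci were highest in the deletion strain and lowest in wild type, with the recovery strain between them, and the deletion values lay above all others. PDE_10011 was a low transcript that averaged 3.98 ± 0.900 FPKM in the deletion strain, 1.94 ± 0.240 in the recovery strain and 0.853 ± 0.733 in wild type. Its log2 change in the deletion strain against wild type was 1.48 ± 0.27, at 2.33 with a pseudocount of 0.1 and 0.62 with 5. PDE_10012 averaged 48.6 ± 10.1 FPKM in the deletion strain, 25.8 ± 5.73 in the recovery strain and 9.73 ± 4.80 in wild type. Its log2 changes were 2.29 ± 0.33 in the deletion strain against wild type, 0.89 ± 0.33 in the deletion strain against the recovery strain and 1.40 ± 0.33 in the recovery strain against wild type. The last was the largest rise of the recovery strain over wild type in the range, and it did not pass limma with all 9 libraries. Wild-type replicate 2 was the highest wild-type library at both loci. Without it the log2 changes in the deletion strain against wild type were 1.78 at PDE_10011 and 2.62 at PDE_10012. The changes of the recovery strain against wild type were then 1.04 ± 0.20 at PDE_10011 and 1.72 ± 0.28 at PDE_10012, and both passed limma. The changes in the deletion strain against the recovery strain, 0.75 at PDE_10011 and 0.89 at PDE_10012, also passed without that library and did not pass with it. With a pseudocount of 5 and all 9 libraries these changes were 0.37 and 0.80, and both passed.

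PDE_10013, the last row of the table, was again lower in the deletion strain. PDE_10013 read 10.5, 11.3 and 11.7 FPKM in the deletion libraries, 48.2, 47.4 and 45.4 FPKM in the recovery libraries and 31.9, 45.3 and 40.1 FPKM in the wild-type libraries. Its log2 change was -1.70 ± 0.14 in the deletion strain against wild type and -1.98 ± 0.14 against the recovery strain, with no overlap, while 0.27 ± 0.14 separated the recovery strain from wild type. That last change did not pass limma with all 9 libraries, and it was 0.39 ± 0.12 and passed without deletion replicate 2 and wild-type replicate 2. Its deletion mean was 28.7% of the wild-type mean, a shallower fall than at any of the 12 loci. PDE_10011 and PDE_10012, both higher in the deletion strain, thus lay between loci that were lower. The table has no rows after PDE_10013, so levels beyond it are unknown.

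On the other side, the 19 rows from PDE_09980 to PDE_09998 showed no shared change. Of the 17 that passed the filter, 14 had log2 changes within 1 of 0 in the deletion strain against wild type, from -0.72 at PDE_09993 to 0.98 at PDE_09991, and the median of the 17 was -0.11. Without wild-type replicate 2 the change at PDE_09993 was -1.01, and it passed limma. PDE_09990, PDE_09995 and PDE_09986 fell outside. PDE_09990 and PDE_09995 passed limma as lower in the deletion strain than in each other strain. PDE_09990 stood at 4.72, 7.38 and 3.99 FPKM in the deletion libraries, 15.2, 15.2 and 15.5 FPKM in the recovery libraries and 13.2, 11.1 and 14.2 FPKM in the wild-type libraries. The deletion values lay below all others, with log2 changes of -1.15 ± 0.20 against wild type and -1.39 ± 0.20 against the recovery strain. PDE_09995 stood at 0.470, 0.400 and 0.280 FPKM in the deletion libraries, 2.03, 1.66 and 1.87 FPKM in the recovery libraries and 3.86, 1.02 and 2.62 FPKM in the wild-type libraries. At this low level the log2 change in the deletion strain against wild type was -1.25 ± 0.29, at -2.27 with a pseudocount of 0.1 and -0.46 with 5. With a pseudocount of 5 its change in the deletion strain against the recovery strain was -0.35 and did not pass limma.

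PDE_09986 split the wild-type libraries. PDE_09986 stood at 1.31, 1.57 and 1.63 FPKM in the deletion libraries, 1.07, 2.40 and 2.69 FPKM in the recovery libraries and 35.7, 0.940 and 30.0 FPKM in the wild-type libraries. Wild-type replicates 1 and 3 were high, and wild-type replicate 2 was the lowest of all 9 libraries. The log2 change was -2.38 ± 0.95 in the deletion strain and -2.14 ± 0.95 in the recovery strain, each against wild type, and neither passed limma. Without wild-type replicate 2 the log2 change in the deletion strain was -3.76 ± 0.26, and it passed, as did -3.51 in the recovery strain. The deletion and recovery strains overlapped at this locus, and the recovery values stayed far below wild-type replicates 1 and 3.

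Other rows before the block were higher in the deletion strain. PDE_09991 stood at 49.3, 45.9 and 49.1 FPKM in the deletion libraries, 24.1, 24.1 and 22.9 FPKM in the recovery libraries and 21.8, 28.4 and 21.9 FPKM in the wild-type libraries. The deletion mean was 2.00 times the wild-type mean, with log2 changes of 0.98 ± 0.13 against wild type and 0.99 ± 0.13 against the recovery strain, and recovery and wild type differed by -0.01 ± 0.13. PDE_09982 averaged 27.2 ± 0.847 FPKM in the deletion strain, 19.1 ± 1.67 in the recovery strain and 18.1 ± 2.20 in wild type, a log2 change of 0.57 ± 0.13 against wild type. With PDE_10011 and PDE_10012 these were the 4 rows of the range called higher in the deletion strain than in wild type by limma, where 15.0% of all rows tested were called higher. Without deletion replicate 2, PDE_09984 was a further one, at a log2 change of 0.44. PDE_09983 passed the filter through its deletion values alone, at 1.24, 2.44 and 1.27 FPKM, against 0.640, 0 and 0 FPKM in the recovery strain and 0.630, 0 and 0.630 FPKM in wild type.

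The row of the range before the block with the highest mean over the 9 libraries followed the libraries that stood apart. PDE_09994 stood at 229, 108 and 198 FPKM in the deletion libraries, 99.6, 92.2 and 93.3 FPKM in the recovery libraries and 224, 139.6 and 209 FPKM in the wild-type libraries. Replicate 2 was the lowest in the deletion strain and in wild type, and the recovery libraries lay below all of them. The log2 change was -0.14 ± 0.28 in the deletion strain against wild type, 0.83 ± 0.28 in the deletion strain against the recovery strain and -0.97 ± 0.28 in the recovery strain against wild type, and none of the 3 passed limma. Without deletion replicate 2 and wild-type replicate 2 they were -0.02 ± 0.12, 1.15 ± 0.11 and -1.18 ± 0.11 in the same order, and the last 2 passed, as they did without either library alone. PDE_09985 and PDE_09992 had the same low replicate 2 in the deletion strain and wild type, with deletion values of 37.6, 22.0 and 34.8 FPKM and 15.4, 7.61 and 17.6 FPKM and wild-type values of 36.0, 20.4 and 34.1 FPKM and 23.9, 10.1 and 21.2 FPKM. The 12 loci of the block did not share this pattern, with mean deviations of 0.13 in deletion replicate 2 and -0.05 in wild-type replicate 2.

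The 10 rows before PDE_09980 did not extend the block. The 9 that passed the filter had log2 changes of -1.93 to 0.97 in the deletion strain against wild type (median -0.17). The lower values were those of PDE_09978, with 21.4 ± 16.3 FPKM in the deletion strain (12.1 FPKM without deletion replicate 2), 109 ± 9.87 in the recovery strain and 72.5 ± 10.7 in wild type, and PDE_09970, with 34.3 ± 5.94, 189.7 ± 16.9 and 91.9 ± 5.38 FPKM in the same strains. With all 9 libraries, PDE_09978 and PDE_09970 passed limma as lower in the deletion strain than in each other strain. PDE_09970 also passed as higher in the recovery strain than in wild type. That log2 change was 1.04 ± 0.15, above the highest of the block, 0.84. Loci in between were not lower by as much, and PDE_09979 and PDE_09980 on either side of the edge of the range had log2 changes of 0.34 ± 0.21 and -0.02 ± 0.38.

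Runs of neighbouring loci that fall together occurred elsewhere in the table. Over all rows tested, 776 had a log2 change of -1 or below in the deletion strain against wild type, which is 8.53%, and they formed 549 runs of consecutive locus numbers, 426 of them a single locus and 8 of them of at least 5 loci. PDE_09999 to PDE_10010 was the third longest. PDE_00789 to PDE_00811 held 23 loci with a median log2 change of -4.84, and PDE_09227 to PDE_09245 held 19 with a median of -8.19, beside -4.78 in the block of 12. On the log2 scale the recovery mean was above the wild-type mean at 12 of 12 loci in the block, at 21 of 23 in PDE_00789 to PDE_00811 and at 3 of 19 in PDE_09227 to PDE_09245. Median log2 changes of the recovery strain against wild type were 0.69, 0.42 and -0.41 in the same order. These runs were all found from the same values, and differences between them were not tested.

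The profile of the 16 loci of the range with a log2 change of -1 or below was matched most closely by PDE_00794, which lies in the run PDE_00789 to PDE_00811, and PDE_02138. PDE_00794 stood at 8.33, 11.2 and 13.0 FPKM in the deletion libraries, 1117, 1098 and 891 FPKM in the recovery libraries and 646, 709 and 787 FPKM in the wild-type libraries. PDE_02138 stood at 1.33, 1.96 and 2.49 FPKM in the deletion libraries, 123, 116.5 and 95.2 FPKM in the recovery libraries and 71.8, 92.0 and 85.8 FPKM in the wild-type libraries. Over the 9 libraries their log2 values correlated with the median profile at r = 0.9998 and 0.9992. The difference between strains dominates such a correlation, and 92 of the 7981 rows outside the range with a mean of at least 5 FPKM had r above 0.99. A correlation as close as theirs leaves little room for deviations that differ, so the following values are no separate support. After strain means were subtracted, PDE_00794 and PDE_02138 correlated with the mean deviation of the 12 loci at r = 0.98 and 0.88. Both are lower in deletion replicate 1 than in deletion replicates 2 and 3, and lower in recovery replicate 3 than in recovery replicates 1 and 2, as the 12 loci are on average.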

How the data were processed

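The deposited table, made by the authors, gives FPKM per the file headers, with 9860 loci and a column per library that was matched to its sample by name. Values have 2 decimals. Per the labels' protocols, NlaIII and MmeI cut the cDNA into short tags, which does not match a unit divided by gene length. No aligner, counting tool, genome build, annotation or read depth is named in the sources used here, so no counting interval was computed. If tag counts were divided by length, differences of a locus between libraries would change only through the pseudocount and the filter.

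Rows with at least 1 FPKM in at least 3 of 9 libraries (9099) were analysed as log2(FPKM + 1), without rescaling. Strain means of all 9 libraries were compared with limma 3.58.1 (R 4.3.3; trend and robust moderation, no covariates, two-sided), with Benjamini-Hochberg adjusted p under 0.05 as the threshold. Its calls measure the spread between libraries, which no label calls separate cultures. Summaries and plots used Python 3.11.15, numpy 2.4.6, pandas 2.3.3 and matplotlib 3.10.9. The range and all rules were chosen with earlier results of these data known. Loci with a log2 change of at least 1 in the deletion or recovery strain against wild type are given in full. The block of 12 and all other loci named were chosen after their values were seen. Alternatives covered pseudocount, filter, scaling, moderation, weights, threshold, replicate number, and the strains and libraries fitted.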

Additional observations from a re-analysis of the deposited data

How the results depend on the processing

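The count of loci in the range called lower in the deletion strain stayed within 1.5 times its value under all 23 alternatives. It was 14 to 18 against wild type (15 as reported), where 6.64% to 25.5% of all rows were called lower. Against the recovery strain it was 14 to 18 (15 as reported), where 9.06% to 32.7% were. The 12 loci of the block were called in both comparisons under all 23. The 1 locus called higher in the recovery strain than in wild type was not stable, and the cause was not tested. The count was 0 with a pseudocount of 0.1, with median centring, with an adjusted p under 0.01 and with the replicate number as a block. In those fits 0.264% to 0.736% of all rows were called higher. It was 2 with a pseudocount of 5, where 0.989% were, and 5 with only the strains compared in the fit, where 2.19% were. It was 14 with array weights, where 18.7% of all rows were called higher, but limma's default estimation of the weights stopped before it converged. Weights estimated gene by gene, an alternative chosen after seeing the data, gave 15, with 27.3% of all rows called higher. The count was 10 without wild-type replicate 2 and deletion replicate 2, where 15.5% were. Omitting each library in turn gave 0 to 4, where 0.220% to 3.0% of all rows were called higher. The median r of deviations within the block was 0.71 to 0.96 under other pseudocounts and scalings and without both libraries. Omitting each library in turn gave 0.60 (deletion replicate 1) to 0.92 (deletion replicate 2). Of 1233 log2 changes of the 18 loci given in full, 1168 moved by less than 1 SD between libraries, 65 moved by more and 0 of the called ones reversed. Of those that moved by more, 45 came from the pseudocounts. Rescaling to TPM moved the median of all rows in the deletion strain against wild type to 0.12. With a filter at 5 FPKM, PDE_09986, PDE_09995 and PDE_10011 were not tested.

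The replicate numbers share no stated origin and were not used as pairs: deviations of libraries with one number correlated between strains at -0.11 to 0.22, above 0.1 in 3 of 9 cases, and 6 of the 9 libraries correlated best with their own number. With the replicate block, 15 loci were lower in the deletion strain than in wild type, where 10.8% of all rows were. In the same fit 16 were lower than in the recovery strain, where 15.2% of all rows were. As higher in the recovery strain than in wild type it called 0 loci and 0.593% of all rows. Limits set by read depth, which is unknown, were not estimated.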
